A study of Homo sapiens with 2 samples.

Results

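Ubiquitin conjugating enzymes and deubiquitinases were compared between human HT1080 cells with an shRNA directed at cMyc and the same line with a non-targeting shRNA. Members were all protein-coding genes named on the array whose symbol starts with UBE2, with USP and a digit, with OTUD or with UCHL. USP18 and UBE2C, pseudogenes, antisense transcripts and a divergent noncoding transcript were left out. This gave 81 genes of 14884 named on the array: 23 conjugating enzymes and 58 genes of the deubiquitinase families. The gene USP6NL entered by its symbol although it encodes a RAB GTPase-activating protein and not a protease.

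HT1080 is an established fibrosarcoma cell line, a tumour of mesenchymal origin. One sample was infected with virus carrying the cMyc shRNA and the other with virus carrying the control shRNA, and both were harvested 48 hours later, per the labels' protocols, whereas the design text speaks of transfection. Both groups therefore carry a hairpin and a viral vector, the labels name neither the hairpin sequence nor an uninfected culture, and each group is 1 Affymetrix Human Gene 2.0 ST array. No test was possible with 1 array per group, so values below describe these 2 arrays.

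Ubiquitin is passed from an activating enzyme (E1) to a conjugating enzyme (E2) and then, with a ligase (E3), to a target protein. The E2 largely sets which kind of chain is built, and some E2s carry ubiquitin-like proteins such as ISG15 or NEDD8 in place of ubiquitin. Deubiquitinases (DUBs) cut ubiquitin off again; USP proteins are the largest family of them, and OTUD and UCHL proteins are smaller cysteine protease families. In dividing cells these enzymes time the destruction of cyclins, DNA repair at stalled forks and the stability of MYC itself.

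Probe set levels were on a log2 scale, and a difference is the level on the cMyc shRNA array minus the level on the control shRNA array. A gene counted as measured when its mean level over both arrays was at or above the median of all probe sets (3.70). This held for 69 of the 81 members, namely 22 of 23 E2s and 47 of 58 DUBs, and for 10258 named genes in all. Single differences carried a technical SD of 0.34, taken from the 2 brightest probe sets of each of 416 genes and blind to differences between separate cultures. MYC, which the shRNA targets, read 7.09 (control) and 6.16 (cMyc shRNA), so it differed by -0.93. Of 9 mesenchymal markers named on the array 8 were measured, among them FN1 at 12.43 and 12.58 and VIM at 9.94 and 9.34, and COL1A1 and COL1A2 had no named probe set. Of 9 epithelial markers 5 were measured, with KRT18, a keratin of simple epithelia, at 9.09 and 8.41, while EPCAM (2.73 and 3.07) was below the measured level. Of 5 haematopoietic markers 2 were measured, CD68 at 10.43 and 11.34 and SPI1 at 4.64 and 4.56.

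Taken as a group, the enzymes were centred on no difference, with UBE2T lowest and UBE2L6 highest. Of the 69 measured members, 4 were at least 2-fold lower on the cMyc shRNA array (5.80%), against 4.0% of all measured genes. They were UBE2T, USP13, USP1 and UBE2S. At least 2-fold higher was 1 member (1.45%), UBE2L6, against 2.01% of all measured genes. Both shares were near the background, so the count of changed enzymes did not set them apart from other genes. The median difference of the measured members was 0.00 with quartiles of -0.28 and 0.26, and that of all measured genes was -0.01. E2s had a median of -0.05 and DUBs of 0.02; other scalings moved these medians to either side of 0, by less than 0.1.

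**Figure D1:**
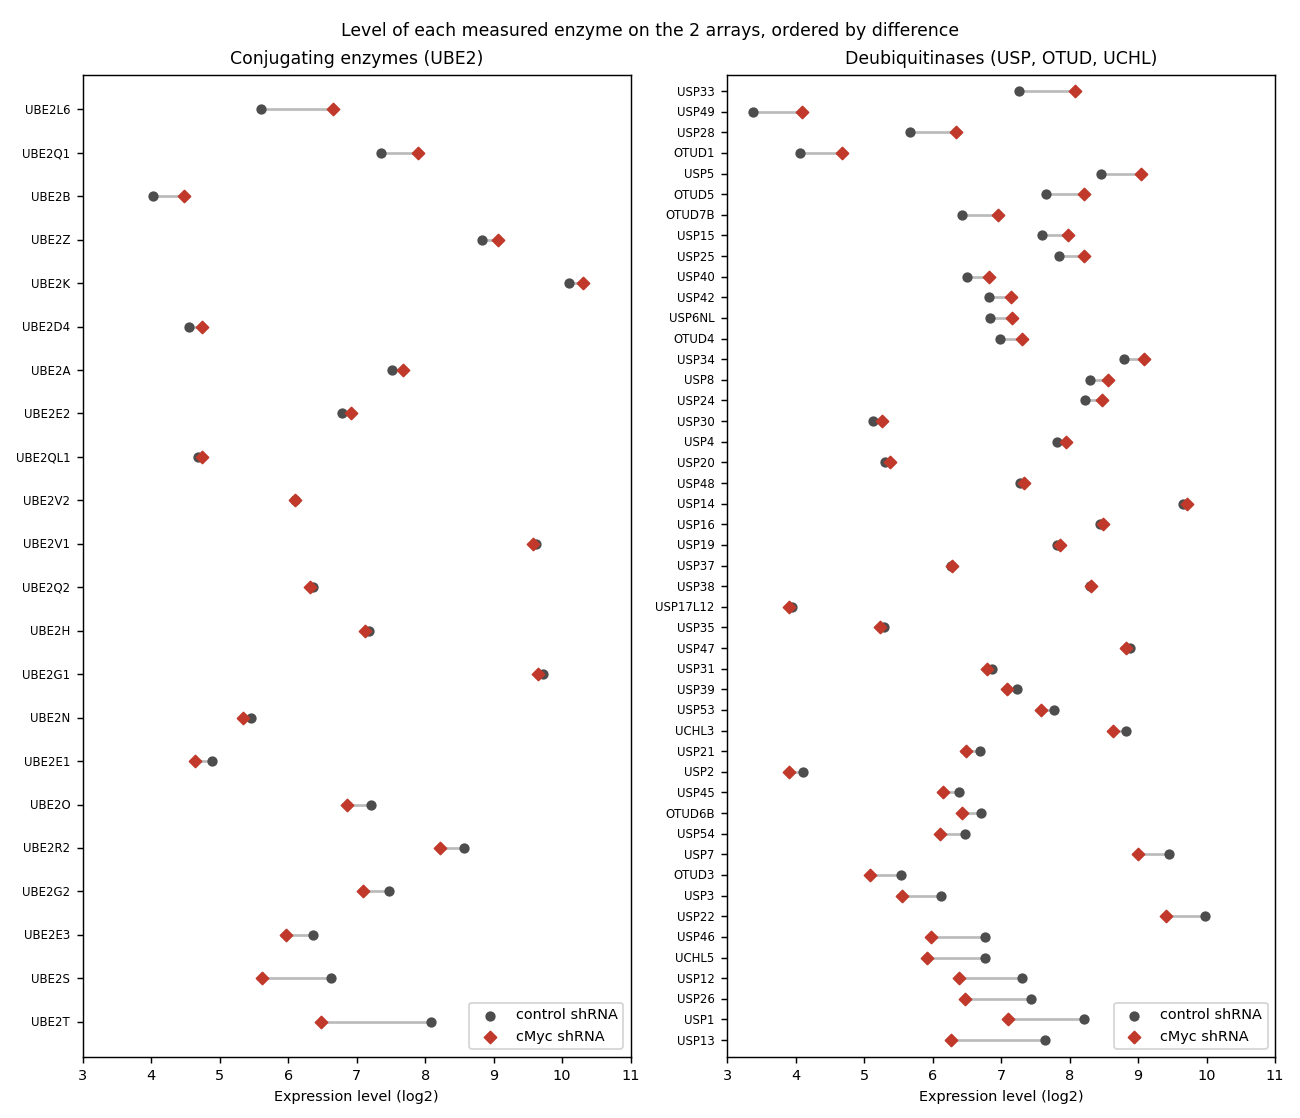
Log2 expression level (horizontal axis) of each of the 69 measured members on the control shRNA array (grey circles) and the cMyc shRNA array (red diamonds), with E2s on the left and DUBs on the right, ordered by difference. Each point is 1 probe set on 1 array; the lowest rows are UBE2T and USP13, which were lower on the cMyc shRNA array, and the top rows are UBE2L6 and USP33, which were higher.

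At a lower bar of 1.5-fold, 8 members were lower (11.6%, against 11.9% of all measured genes) and 5 were higher (7.25%, against 8.77%). The lower ones were, besides the 4 above, USP26, USP12, UCHL5 and USP46. The higher ones besides UBE2L6 were USP33, USP49, USP28 and OTUD1. A total of 40 of the 69 members differed by less than 1 technical SD. The quartiles of all measured genes, -0.31 and 0.26, also lay within 1 SD. Of the members, 12 differed by at least 2 of these SDs (17.4%), against 15.8% of all measured genes.

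**Figure D2:**
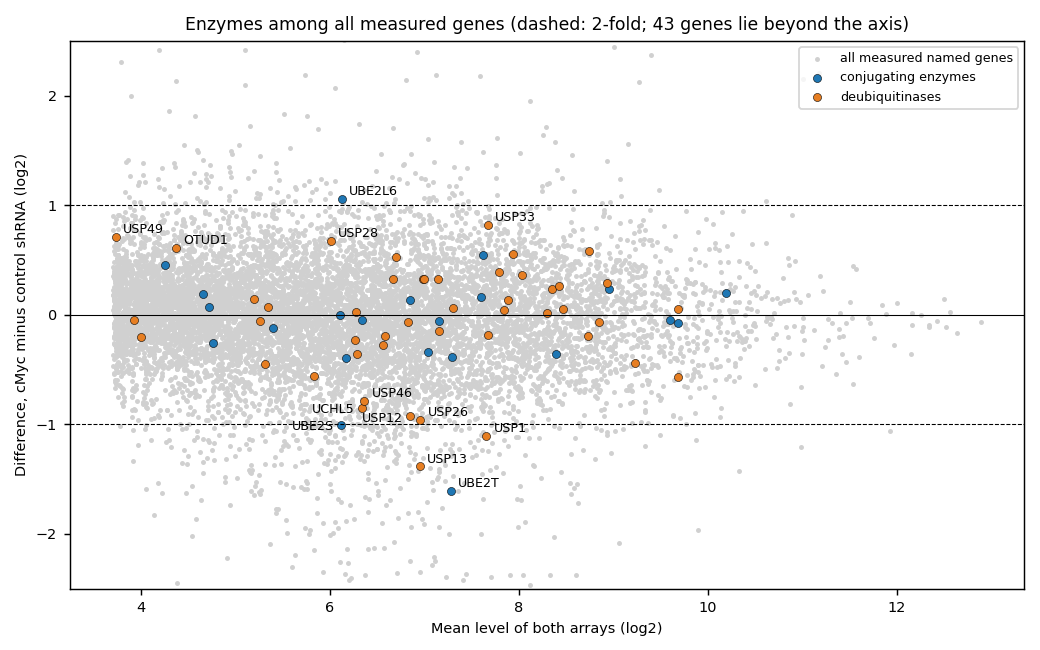
Difference between the arrays (log2, vertical axis) against mean level of both arrays (log2, horizontal axis) for measured named genes (grey; 43 lie beyond the vertical axis and are not shown), E2s (blue) and DUBs (orange), with members past 1.5-fold named and dashed lines at 2-fold. The members spread over the same band as the other genes, with 5 outside the 2-fold lines.

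Promoter sequences are shown for the 5 members past 2-fold and for USP28, a DUB of MYC whose promoter held the E-box CACGTG. The promoters of OTUD1 and USP6NL, which also held it, are not shown. The sequences shown let the reader look for the short elements of cell cycle, interferon and MYC-bound promoters. Each is the 250 bases before the gene's annotated start, from RefSeq (GRCh38.p14), written 5′ to 3′ along the gene. They lie at chr1:202341937-202342186 (minus strand) for UBE2T, chr1:62436145-62436394 (plus strand) for USP1 and chr19:55407789-55408038 (minus strand) for UBE2S. The others are chr3:179652790-179653039 (plus strand) for USP13, chr11:57567936-57568185 (minus strand) for UBE2L6 and chr11:113875573-113875822 (minus strand) for USP28. Capitals mark a CCAAT box (its reverse complement reads ATTGG), the cell cycle homology region TTTGAA and the E-box CACGTG.
UBE2T: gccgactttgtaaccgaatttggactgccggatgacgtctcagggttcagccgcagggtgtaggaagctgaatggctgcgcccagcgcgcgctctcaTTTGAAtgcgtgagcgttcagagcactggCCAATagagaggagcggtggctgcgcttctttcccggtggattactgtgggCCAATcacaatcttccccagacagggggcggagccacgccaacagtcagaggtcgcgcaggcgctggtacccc
USP1: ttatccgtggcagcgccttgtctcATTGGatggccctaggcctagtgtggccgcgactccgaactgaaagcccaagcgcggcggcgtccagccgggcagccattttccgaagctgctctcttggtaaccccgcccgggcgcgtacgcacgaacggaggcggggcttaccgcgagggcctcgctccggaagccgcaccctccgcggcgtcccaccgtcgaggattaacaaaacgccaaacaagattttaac
UBE2S: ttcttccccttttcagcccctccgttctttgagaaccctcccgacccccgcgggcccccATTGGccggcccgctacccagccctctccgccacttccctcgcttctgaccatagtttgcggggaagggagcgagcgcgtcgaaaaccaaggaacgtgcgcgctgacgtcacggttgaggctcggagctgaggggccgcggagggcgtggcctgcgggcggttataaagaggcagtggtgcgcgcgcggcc
USP13: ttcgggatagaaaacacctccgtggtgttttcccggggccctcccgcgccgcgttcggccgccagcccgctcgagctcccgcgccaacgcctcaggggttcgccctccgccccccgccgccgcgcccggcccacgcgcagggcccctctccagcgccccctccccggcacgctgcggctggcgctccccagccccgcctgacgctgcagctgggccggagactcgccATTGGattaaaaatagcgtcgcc
UBE2L6: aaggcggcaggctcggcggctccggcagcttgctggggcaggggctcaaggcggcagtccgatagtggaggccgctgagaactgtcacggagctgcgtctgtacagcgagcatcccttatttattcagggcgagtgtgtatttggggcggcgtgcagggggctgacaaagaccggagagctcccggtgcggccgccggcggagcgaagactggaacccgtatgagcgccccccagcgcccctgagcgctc
USP28: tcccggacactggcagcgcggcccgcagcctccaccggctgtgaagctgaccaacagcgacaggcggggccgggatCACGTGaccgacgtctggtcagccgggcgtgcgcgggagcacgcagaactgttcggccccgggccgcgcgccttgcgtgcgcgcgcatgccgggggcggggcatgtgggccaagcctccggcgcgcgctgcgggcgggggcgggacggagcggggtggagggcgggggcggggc

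Motifs were searched on both strands of RefSeq windows of 250 bases before and 50 after the start, which were found for 57 of the 69 measured members. The CCAAT box, the site of NF-Y, stood in all 4 of the promoters whose genes were at least 2-fold lower. It was absent from those of USP12, UCHL5 and USP46, the next lowest genes with a window. That of USP5, which differed by 0.58, held 3. The box stood in 26.3% of the promoters of measured members, in 36.2% of those of measured named genes and in 35.7% of all 27305 promoters of the same length. UBE2T had it at 124 and at 73 bases before the start and also held TTTGAA at 153 bases before it; TTTGAA or TTCGAA stood in 7.02% of the promoters of measured members, 11.3% of those of measured named genes and 16.6% of all promoters. USP1 held a second CCAAT box after the start, outside the sequence printed. The MYC-binding E-box CACGTG was found in 3 of the 57 promoters (5.26%), against 9.87% for measured named genes and 7.43% for all promoters. These 3 genes, USP28, OTUD1 and USP6NL, differed by 0.67, 0.61 and 0.32, the last within 1 technical SD. Differences were not compared between genes with and without this E-box. The E2F words TTTCGCGC and TTTGGCGC were found in 1 member promoter, that of OTUD7B (1.75%, against 1.98% for measured named genes and 1.18% for all promoters). The interferon-stimulated response element, taken as GAAA repeated after 2 bases, was found in that of OTUD4 (1.75%, against 2.52% for measured named genes and 3.65% for all promoters) and not in this window of UBE2L6. A match is a run of letters and was not tested as a site.

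The lowest member was UBE2T, the E2 that with FANCL ubiquitinates FANCD2 and FANCI in repair of DNA crosslinks. It read 8.08 with the control hairpin and 6.47 with the cMyc hairpin, a difference of -1.61 or 3.05-fold lower. Among the 500 measured genes nearest to it in mean level, 6 had a lower difference. USP1, which with its partner WDR48 removes that same ubiquitin and the one on PCNA, read 8.21 and 7.10, a difference of -1.11 or 2.15-fold lower, and 14 of its 500 neighbours in level lay lower. The writer and the eraser of this modification were thus both lower on the cMyc shRNA array.

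USP12 and USP46, near relatives that also work with WDR48, lay on the same side. USP12 read 7.31 and 6.38 (a difference of -0.93) and USP46 read 6.76 and 5.97 (-0.79). WDR48 itself read 7.38 and 8.16, a difference of 0.78 in the other direction, and the second cofactor WDR20 differed by 0.21. All 3 catalytic partners of WDR48 among the members were therefore at least 1.5-fold lower, as were 11.9% of all measured genes. WDR48 was 1.71-fold higher. RAD18, the ligase that puts ubiquitin on PCNA, read 8.22 and 7.23 (-0.99), and PCNA differed by 0.01. None of the 10 Fanconi genes listed had a named probe set here.

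UBE2S, which extends chains on substrates of the anaphase-promoting complex (APC/C), read 6.62 and 5.61, a difference of -1.004 or 2.01-fold lower. It lay at the 2-fold line: with loess on level it was -0.99 and after quantile normalization -0.95. Its companion E2, UBE2C, had no named probe set and was not analysed here. Of the 17 measured APC/C subunits, activators and inhibitors, 2 lay past 2-fold on the lower side (all measured genes: 4.0%). On the higher side there were 0 (all measured genes: 2.01%), and the median of the 17 was -0.13. Those past 2-fold were the activator CDC20, at 9.23 and 6.86 (-2.38), and the inhibitor FBXO5, at 5.81 and 4.08 (-1.73). The core subunits ranged from -0.71 for ANAPC5 to 0.48 for CDC16, and FZR1, the G1 activator, differed by -0.21.

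These enzymes were read from whole cultures, so fewer cells in a cell cycle phase and less RNA per cell cannot be told apart. All 17 measured G2/M markers, with CDC20 of the APC/C among them, were at least 2-fold lower on the same array. This compares with 4.0% of all measured genes. CDC20 is thus counted in both lists, so the markers are not separate from the APC/C genes. The median of the 17 markers was -2.38. Their levels ranged from 6.64 to 10.16 on the control array and from 4.15 to 7.42 on the cMyc shRNA array. UBE2T, USP1 and UBE2S moved to the same side by less than that median, and the part of the cell cycle in their differences was not tested.

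**Figure D3:**
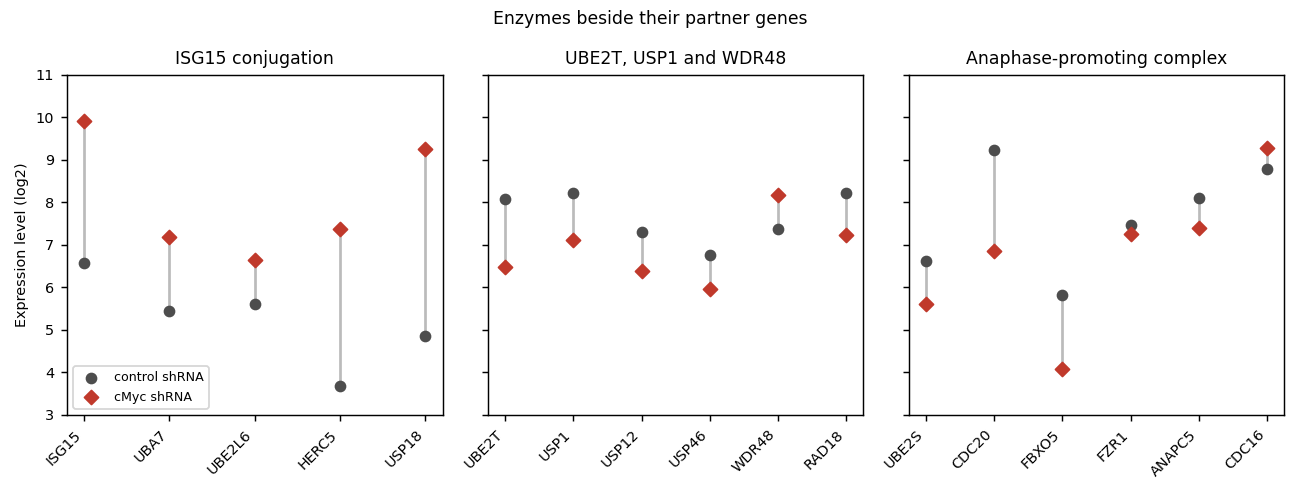
Log2 expression level (vertical axis) on the control shRNA array (grey circles) and the cMyc shRNA array (red diamonds) for genes of ISG15 conjugation, for UBE2T, USP1 and the WDR48 partners, and for UBE2S with the APC/C. The 5 ISG15 genes were higher on the cMyc shRNA array, the enzymes in the middle panel were lower while WDR48 was higher, and UBE2S lay lower with CDC20 and FBXO5.

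UBE2L6, the E2 for the ubiquitin-like protein ISG15, was the highest member. It read 5.60 and 6.65, a difference of 1.06 or 2.08-fold higher, and 5 of its 500 neighbours in level lay higher. The E1 of the same cascade, UBA7, read 5.44 and 7.17 (1.74, 3.33-fold higher), and ISG15 itself read 6.57 and 9.91 (3.35). The ISG15 protease USP18 differed by 4.39 and the ligase HERC5, whose control value of 3.68 lay just under the 3.70 line so that its size is uncertain, by 3.70. UBE2L6 had the smallest difference of these 5 genes. All 14 measured interferon-stimulated markers lay past 2-fold on the higher side (median 3.79), against 2.01% of all measured genes. ISG15 and HERC5 are among these 14, so the markers are not separate from the cascade. The levels of these markers ranged from 2.63 to 6.57 on the control array and from 4.94 to 9.91 on the cMyc shRNA array. Their part in the difference of UBE2L6 was not tested. Since 7 of them had control values under the 3.70 line and counted as measured through the cMyc shRNA array, that count and median are inexact.

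Other carriers of ubiquitin-like proteins could be read only in part. UBE2Z, which takes ubiquitin or FAT10 from UBA6, read 8.84 and 9.07 (0.23), and UBA6 differed by 0.02. UBE2M and UBE2F, the E2s of NEDD8, had no named probe set and were not analysed here. The E1 subunits SAE1 for SUMO and NAE1 for NEDD8 differed by -0.54 and -0.32, and UBA1, the main E1 of ubiquitin, by 0.06. Of the 8 measured E1 genes, 1 lay past 2-fold on the higher side (UBA7) and 0 on the lower, and the median was 0.04. Of the 9 measured modifiers, ISG15 alone lay past 2-fold, on the higher side, and the median was -0.12. Past 2-fold were 2.01% of all measured genes on the higher side and 4.0% on the lower. Each of these 2 lists had 1 gene past 2-fold, UBA7 or ISG15, both already named with the ISG15 cascade.

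General-purpose E2s had quartiles of -0.31 and 0.16, against -0.31 and 0.26 for all measured genes. UBE2D4, UBE2E1, UBE2E2, UBE2E3, UBE2K, UBE2H and UBE2R2, which serve many ligases, ranged from -0.39 to 0.20. None reached 1.5-fold, which 8.77% of all measured genes passed on the higher side and 11.9% on the lower. UBE2K, which builds K48-linked chains, was highest at 10.10 and 10.30 (0.20). UBE2E3, an E2 with a long N-terminal extension, was lowest at 6.36 and 5.97 (-0.39). UBE2R2, a partner of cullin ligases like CDC34, differed by -0.36 and CDC34 by 0.15. UBE2D1, UBE2D2, UBE2D3 and UBE2L3 had no named probe set here.

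E2s of K63-linked chains and DNA damage tolerance, apart from UBE2T, ranged from -0.12 to 0.45. UBE2N, the K63-specific E2, read 5.46 and 5.33. Its inactive partners UBE2V1 and UBE2V2 read 9.62 and 9.58, and 6.11 on both arrays. The UBE2V2 values were equal to every digit deposited, as in 167 of 53617 probe sets. UBE2A and UBE2B, the paired RAD6 enzymes that ubiquitinate PCNA and histone H2B, were 7.52 and 7.68 (0.16) and 4.02 and 4.47 (0.45).

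E2s of endoplasmic reticulum quality control were UBE2G1, at 9.72 and 9.64 (-0.08), and UBE2G2 at 7.48 and 7.09 (-0.39). Among the larger or divergent E2s, UBE2Q1 read 7.35 and 7.89 (0.54), whereas its relative UBE2Q2 differed by -0.05. UBE2O, a hybrid of E2 and E3 that clears unassembled ribosomal and globin proteins, differed by -0.35, and UBE2QL1 by 0.07. None of these 6 genes reached 1.5-fold, which 8.77% of all measured genes passed on the higher side and 11.9% on the lower.

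**Figure D4:**
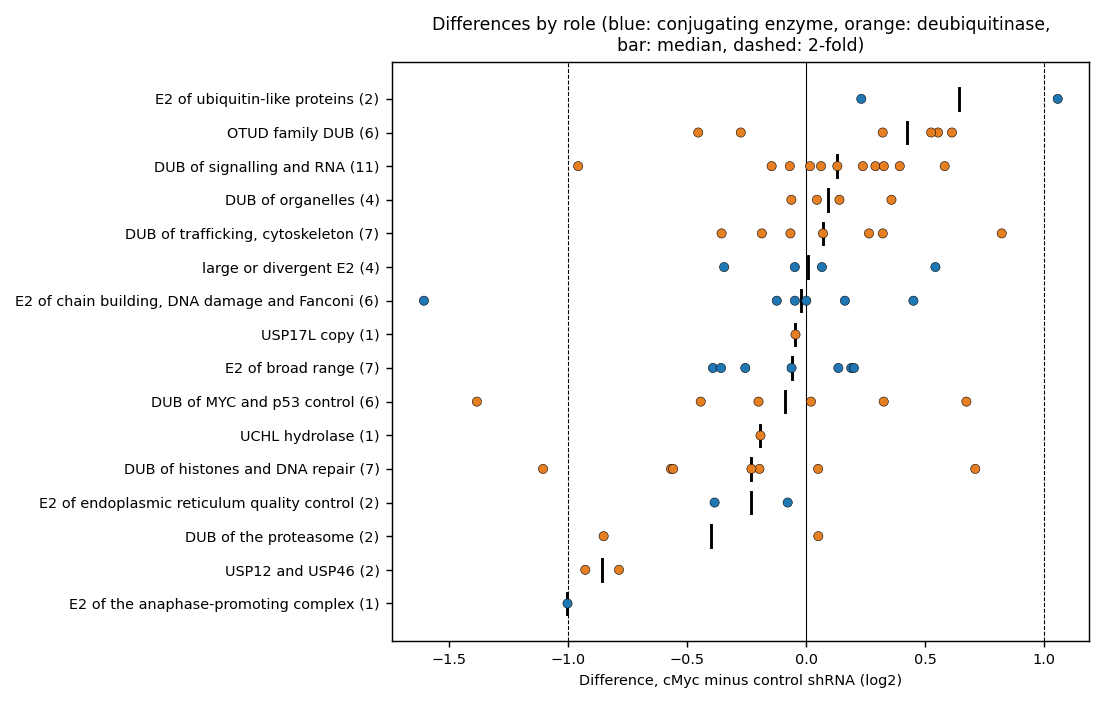
Difference between the arrays (log2, horizontal axis) for each measured member, in rows by role with the number of members in brackets; blue points are E2s, orange points DUBs and bars the median of a row. USP12 and USP46 lie together near -0.86 while most other rows spread across 0.

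Among DUBs, USP13 had the lowest difference. It is a ubiquitin-binding protease described as acting on MITF and MYC. USP13 read 7.64 with the control hairpin and 6.26 with the cMyc hairpin, a difference of -1.38 or 2.61-fold lower, with 15 of 500 neighbours in level lower. USP5, its closest relative and the main enzyme that recycles free ubiquitin chains, read 8.46 and 9.04, a difference of 0.58. The gap of 1.97 between them was the widest of the 16 related pairs that could be compared.

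DUBs described as acting on MYC protein or on the control of p53 did not share a direction. USP28, which counteracts the ligase FBXW7 on MYC, read 5.67 and 6.35 (0.67, 1.59-fold higher). USP37, also described as stabilising MYC, read 6.26 and 6.28 (0.02). USP7, which protects MDM2 and p53, read 9.45 and 9.00 (-0.44). USP42, a p53 DUB, differed by 0.33. The 6 measured genes of this group had a median of -0.09. USP2 was read by 2 probe sets, with differences of -0.20 on the brighter and 0.16 on the dimmer, which was below the measured level. USP36, the nucleolar DUB of MYC, and USP10 had no named probe set here.

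Histone and DNA repair DUBs lay on both sides of 0. Of 7 measured, 5 were below 0, with a median of -0.23; of all measured genes 51.3% were below 0. USP22, the H2B protease of the SAGA coactivator, read 9.97 and 9.40 (-0.57), and USP3, an H2A protease, read 6.11 and 5.55 (-0.56). USP45 (-0.23) and USP21 (-0.20) were closer to 0, and USP16, the H2A protease of mitosis, differed by 0.05. USP49, an H2B protease, lay the other way at 3.38 and 4.09 (0.71). Its control value lay under the 3.70 line used here, which leaves the size uncertain. Of the SAGA partners of USP22, ATXN7 differed by 0.55 and ENY2 by 0.33, the latter within 1 technical SD. ATXN7L3B, a relative of the adaptor ATXN7L3 and not itself a SAGA subunit, differed by 1.46.

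The 2 DUBs that bind the proteasome reversibly lay apart. UCHL5, which is recruited by ADRM1 and also sits in the INO80 remodeller, read 6.76 and 5.91 (-0.85, 1.80-fold lower). USP14, which trims chains on the proteasome, read 9.66 and 9.71 (0.05). UCHL3, a hydrolase of small ubiquitin and NEDD8 adducts, read 8.83 and 8.63 (-0.20). UCHL1, its neuronal relative, was below the measured level.

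DUBs of endosomes, trafficking and the cytoskeleton had a median of 0.07 over 7 genes. USP33, which acts on receptors and on the centrosome protein CCP110, was the highest DUB among the members, which leave out USP18. It read 7.26 and 8.08 (0.82, 1.77-fold higher), with 20 of 500 neighbours in level higher. Its relative USP20 differed by 0.07. USP8, which spares receptors from lysosomal sorting, differed by 0.26 and USP47, a DUB of DNA polymerase beta, by -0.07. USP54 (-0.36) and USP53 (-0.19) were on the lower side, and USP6NL was at 0.32. USP9X and USP32 had no named probe set here.

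Organelle DUBs had a median of 0.09 over 4 genes. USP25 read 7.85 and 8.21 (0.36), USP30, the DUB of the mitochondrial outer membrane that opposes mitophagy, differed by 0.14, USP19 of the endoplasmic reticulum by 0.04 and USP35 by -0.06. In the mixed group of signalling and RNA, 8 of 11 measured genes were above 0, against 48.5% of all measured genes, with a median of 0.13. USP15, a DUB of the TGF-beta receptor pathway, read 7.59 and 7.98 (0.39), and USP34, a DUB of axin, read 8.79 and 9.08 (0.29). USP40 differed by 0.33, USP24 by 0.24, USP4 by 0.13, USP48 by 0.06, USP38 by 0.02, USP31 by -0.07 and the splicing factor USP39, which lacks protease activity, by -0.15. USP26, an X-linked gene best known from testis, stood apart from the group at 7.43 and 6.48 (-0.96, 1.94-fold lower).

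Of 6 measured OTUD proteases 4 were above 0, as were 48.5% of all measured genes, and their median was 0.42. OTUD1 read 4.06 and 4.67 (0.61), OTUD5, a regulator of interferon signalling also called DUBA, read 7.66 and 8.21 (0.55), and OTUD7B, which cuts K11-linked chains, read 6.43 and 6.96 (0.52). OTUD4 differed by 0.32. The other 2 were lower, OTUD3 at 5.53 and 5.08 (-0.45) and OTUD6B at 6.70 and 6.42 (-0.28).

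Related enzymes were set side by side to see whether close relatives shared a difference. Of 36 pairs listed, 16 had both genes measured. In 9 pairs both genes lay on the same side of 0, in 6 on opposite sides, and in the pair with UBE2V2 1 gene was at 0. Of all measured genes 48.5% were above 0 and 51.3% below, and no share was computed for unrelated pairs. UBE2E1, UBE2E2 and UBE2E3 were each paired with both others, so the pairs are not independent. The gap was over 0.5 in 5 pairs: USP5 and USP13, USP20 and USP33 (0.75), USP3 and USP16 (0.61), UBE2Q1 and UBE2Q2 (0.59) and UBE2E2 and UBE2E3 (0.53). USP12 and USP46 lay 0.14 apart and USP25 and USP28 0.31 apart. Probes can cross-react between relatives, which was not tested here.

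**Figure D5:**
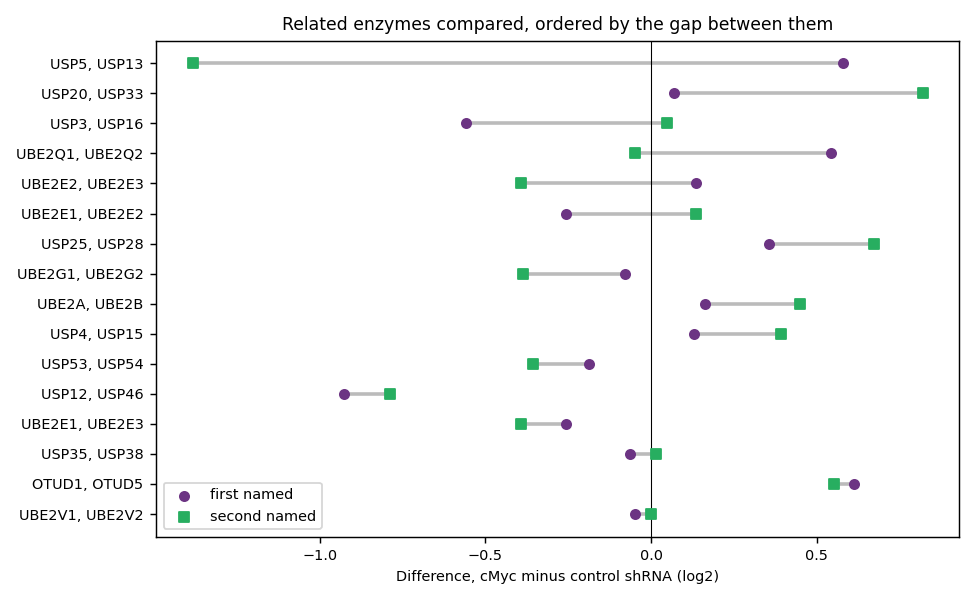
Difference between the arrays (log2, horizontal axis) for both genes of the 16 related pairs, ordered by the gap between them; purple circles are the first gene named and green squares the second. USP5 and USP13 are 1.97 apart, and the next pair, USP20 and USP33, 0.75.

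The other genes of the pathway came from lists that do not use the members' symbols. Among 15 measured genes of other DUB families, 0 passed 2-fold, higher or lower, and their median was 0.15; the farthest was VCPIP1, a DUB of Golgi reassembly, at 7.23 and 7.92 (0.69). Of 8 other E2 and E2-like genes, 0 passed 2-fold either way and the median was 0.22, with UEVLD farthest at 0.70. The 14 measured cullins and adaptors also had 0 genes past 2-fold either way, with a median of -0.0014 and CUL9 farthest at 0.53. Only 2.01% of all measured genes were past 2-fold higher and 4.0% lower. A count of 0 in lists this short therefore does not set them apart from other genes. Of 23 measured HECT and related ligases, 2 were at least 2-fold higher, HERC5 and its interferon-induced relative HERC6 (6.44 and 9.60), and 0 were past 2-fold lower. The higher share was 8.70%, against 2.01% of all measured genes, and the control value of HERC5 lay under the 3.70 line. In all 18 of the 23 were above 0, against 48.5% of all measured genes, and the median of the 23 was 0.19. UBE3D lay farthest the other way at -0.64.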

How the data were processed

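The authors deposited log2 expression values for 53617 probe sets on 2 arrays, made with Affymetrix Expression Console per the submitters' processing notes. Its version, background correction, normalization and annotation build are not named in any source used here, and the log base was inferred from the range of 1.41 to 13.9. Array medians were 3.68 (control) and 3.73 (cMyc shRNA). No scanner intensities or detection calls were used here, so a gene counts as measured by its level alone. Precision is limited by having 1 array per group.

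GEO's platform annotation named 16098 probe sets, each with 1 symbol; 37519 were unnamed. All 16098 Entrez identifiers were in RefSeq (GRCh38.p14), which gave biotypes and promoters. The brightest probe set stood for a gene; 80 of 81 members had only 1. The genes named were members past 2-fold, the highest and lowest of each role, pairs over 0.5 apart, members with 2 probe sets and, of each pathway list, those past 2-fold or the farthest; other members were added after their values were seen. Members and lists were chosen with earlier results of these data known. Protein sequences were not used here, so relatives were paired from general knowledge. A set of 8 alternatives was planned and 1 added. Tools were pandas 2.3.3, numpy 2.4.6 and statsmodels 0.14.6 under Python 3.11.15, and the counting was tested on simulated data.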

Additional observations from a re-analysis of the deposited data

How the results depend on the processing

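Tried in turn were 3 scalings, 2 level filters, the mean over probe sets, a 1.5-fold rule and means in place of medians, and leaving out USP6NL and the USP17L copies was chosen after seeing the data. The 1.5-fold rule widened the counts, as it must, to 5 members higher and 8 lower, from 1 and 4. Centring added USP26 (-1.004) to the lower genes, and quantile normalization and loess dropped UBE2S, leaving 3; UBE2T, USP13 and USP1 stayed at least 2-fold lower and UBE2L6 at least 2-fold higher under every alternative run. MYC ranged from -0.98 to -0.87 over the scalings. The 207 values of single members under the 3 scalings moved by at most 0.07; the filters and the other rules leave a single probe set's value as it is, and the mean over probe sets took USP2 below the measured level. The medians of all members, E2s and DUBs stayed within 0.1 of 0. No paired analysis was possible because each group is 1 array, so leaving out a replicate was not possible either.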

Other observations

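Members below the measured level were close to the background of the array, and no direction is drawn from them. These 12 genes were OTUD6A, OTUD7A, UBE2U, UCHL1, USP6, USP17L10, USP17L15, USP29, USP43, USP44, USP50 and USP51, with differences from -0.39 for USP17L10 to 0.53 for USP29, a gene described as acting on p53. The USP17L genes form a family of near-identical copies: the probe set of USP17L12 and one of the pseudogene USP17L9P held the same values on both arrays (3.94 and 3.90), so they cannot be separated.

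Noncoding transcripts that share a name with a member were left out of all counts. USP30-AS1 read 3.48, under the 3.70 line so that its size is uncertain, and 4.27 (0.79) beside 0.14 for USP30, USP3-AS1 read 4.56 and 4.74 (0.18) beside -0.56 for USP3, and USP2-AS1 read 3.93 and 4.27 (0.33) beside -0.20 for USP2. The pseudogene UBE2MP1 read 8.80 and 8.29 (-0.51); its parent UBE2M was not analysed here, and probes may read both.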
